A study of Rattus norvegicus with 12 samples.

Results

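The comparison described here asked whether nandrolone acted differently on denervated muscle when it was given early and when it was given late. All 12 arrays of the series entered it, placed in 4 groups of 3 by their titles. The muscle was the gastrocnemius, a calf muscle, taken after transection of the left sciatic nerve in Wistar hannover males. In the early arm the rats were dosed for 7 days from the day of surgery and killed at day 7, with nandrolone or with vehicle. In the late arm dosing began 29 days after surgery, again for 7 days, and the muscle was taken at day 35. The value followed below is the interaction, that is the log2 difference between nandrolone and vehicle at day 35 minus the same difference at day 7. Every group was denervated, so no array shows innervated muscle, and the labels used here give neither the dose nor the age of the rats. Growth of the rats between day 7 and day 35 and the length of denervation cannot be told apart. Titles number the samples within a group without stating that each came from its own rat, so p-values measure the spread between these samples, which may be technical.

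Nandrolone is an anabolic steroid that acts through the androgen receptor. Denervation makes muscle lose mass through ubiquitin ligases such as Trim63 (MuRF1) and Fbxo32 (atrogin-1), which mark muscle proteins for the proteasome and are under the control of FoxO transcription factors. Glucocorticoids drive the same programme and induce genes such as Sgk1, Klf15 and Nfkbia. Immediate early genes, among them Fos, Egr1 and Atf3, encode transcription factors that are switched on within minutes by stretch, injury, growth factors or calcium.

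The 8 skeletal muscle markers had high signals on every array, for example 6669.9 to 10735 for desmin (Des), and none of their interactions was above 0 (median -0.09, and 0.03 without nandrolone day 35 replicate 3). Array medians ran from 44.8 to 63.5 except on nandrolone day 35 replicate 3, at 111, which also had the lowest mean correlation with its group, 0.895. RNA quality was read from the 3′ to 5′ ratios of actin and Gapdh control probes. The actin ratio did not overlap at day 35, at 3.13, 2.68 and 3.71 for vehicle and 2.57, 2.12 and 1.90 for nandrolone. The Gapdh ratio did overlap there, at 1.20, 1.14 and 1.36 for vehicle and 1.14, 1.17 and 1.17 for nandrolone. At day 7 the actin ratio overlapped, from 2.08 to 2.81. The part of RNA quality in the day 35 differences was not tested. Signals below are quantile-normalized, which gives all arrays one distribution, and the median interaction over all 18625 tested probe sets was then -0.03. It was 0.13 on the deposited scale and -0.13 after median centring, so list medians are to be read against these shifts. In bulk muscle, fewer cells of a type and less RNA per cell cannot be told apart.

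No probe set passed limma for the interaction at an adjusted p of 0.05, which is 0% of those tested, and the lowest adjusted p was 0.928. At an unadjusted p under 0.05 stood 745 probe sets, or 4% of all, of which 269 (1.44%) had an interaction above 0 and 476 (2.56%) below. None passed for nandrolone at day 7 either, where 331 (1.78%) had an unadjusted p under 0.05, 173 (0.929%) higher and 158 (0.848%) lower under nandrolone. At day 35 none passed, the lowest adjusted p being 0.268, and 1590 (8.54%) had an unadjusted p under 0.05, 656 (3.52%) higher and 934 (5.01%) lower. An unadjusted p under 0.001 was reached by 8 (0.043%) at day 7 and 29 (0.156%) at day 35. The median standard error of an interaction was 0.345 on the log2 scale, against 0.244 for the drug difference at a single day. Every gene value below is therefore a measured difference that did not pass the test over all probe sets, with an adjusted p from 0.928 to 0.998.

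The drug differences at the days were little correlated over probe sets. Nandrolone was above vehicle in 49.4% of probe sets at day 7 and 45.2% at day 35. Of all probe sets, 8993 (48.3%) had opposite signs, and 12232 (65.7%) had the larger difference at day 35. Across probe sets, which are not independent, Pearson's r between the drug differences was 0.0859, and -0.0659 without nandrolone day 35 replicate 3. No probe set passed on either day, so a low r cannot tell unlike drug responses from noise. A separated reversal, in which all 3 nandrolone arrays lay above all 3 vehicle arrays on one day and below them on the other, was found for 67 probe sets (0.36%). In 23 of these (0.123%) nandrolone was lower at day 7 and higher at day 35, and in 44 (0.236%) the reverse held. All nandrolone arrays lay above all vehicle arrays for 3.9% of probe sets at day 7 and 4.33% at day 35, and below them for 3.75% and 7.31%. Separation the same way at both days was found for 106 (0.569%). Only 12 probe sets (0.0644%) had an unadjusted interaction p under 0.001, all of them opposite in sign between the days and 6 of them separated reversals. Choice by a small interaction p itself favours opposite signs. At an unadjusted p under 0.05, 91.7% were opposite in sign and 7.92% were separated reversals. The plot of both drug differences shows immediate early genes mostly left of 0 and matrix genes mostly above 0.

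**Figure D1:**
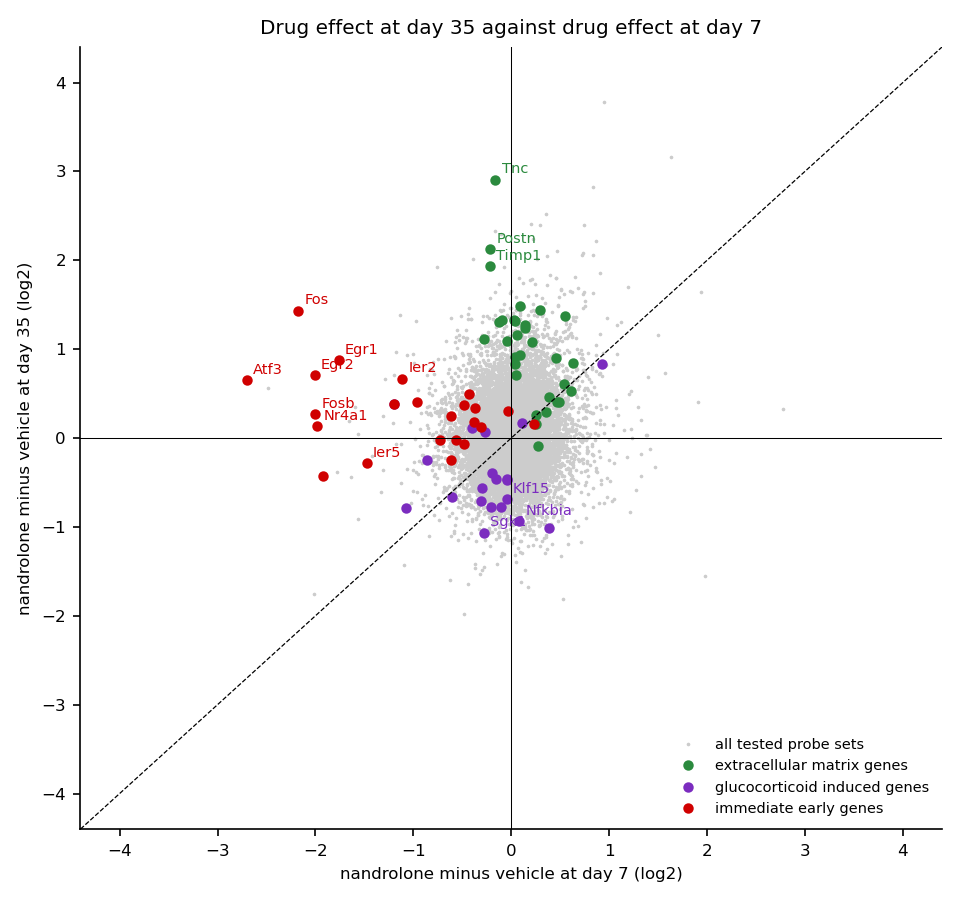
Each point is 1 probe set; the horizontal axis is the log2 difference between nandrolone and vehicle at day 7 and the vertical axis the same at day 35, with equal differences on the dashed line. Immediate early genes (red) reach -2.70 at day 7 and lie above the dashed line in 22 of 23 cases, extracellular matrix genes (green) reach 2.91 at day 35, and glucocorticoid-induced genes (purple) lie mostly below 0 at day 35.

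Immediate early genes made up the list with the largest share of low p-values. Of 23 tested members, 22 had an interaction above 0, against 47.1% of all probe sets, and 11 (47.8%) had an unadjusted p under 0.05, all above 0, against 1.44% of all. Their median interaction was 0.92, made of a median nandrolone difference of -0.73 at day 7, with 22 members below 0, and of 0.27 at day 35, with 17 above 0. At day 7 all nandrolone arrays lay below all vehicle arrays for 13 members, a separation that 3.75% of all probe sets showed. At day 35 no member separated the treatments. Apart from Ier2, Egr2 and Ier5, which the naming rule gave, the members below were singled out after their values were seen.

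Fos, the partner of Jun in the AP-1 factor, had signals of 3765, 4613 and 4049 under vehicle and 160.1, 2620.3 and 1644 under nandrolone at day 7, and 419, 167 and 686 under vehicle and 599, 3606 and 478 under nandrolone at day 35. The day 7 vehicle arrays were all above every other array of the series, and at day 35 only nandrolone replicate 2 came near them. The interaction was 3.61 ± 1.29. Egr1, a zinc finger factor that answers growth factors and stretch, had signals of 4271, 5338 and 5081 under vehicle and 419.6, 3402 and 1989.9 under nandrolone at day 7, and 1230.3, 919 and 1751 under vehicle and 1451, 4535 and 1883 under nandrolone at day 35. Here too the drug arrays at day 7 lay below vehicle without overlap, while at day 35 the treatments overlapped, and the interaction was 2.64 ± 0.85 (unadjusted p = 0.00871 in limma). Its relative Egr2 measured 925, 571 and 741 under vehicle and 69.4, 279 and 240.3 under nandrolone at day 7. At day 35 its signals were 89.6, 79.8 and 188 and 68.7, 383 and 248, so that the level under vehicle was low by then and nandrolone spanned it. The Egr2 interaction was 2.71 ± 0.79 (unadjusted p = 0.0045 in limma).

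Atf3, a stress-induced repressor of the ATF family, had the most negative day 7 difference of the list, -2.70. Its signals were 1654, 1157 and 2172 under vehicle and 170.5, 519.6 and 139.5 under nandrolone at day 7, and 449, 156 and 780.5 under vehicle and 189, 600.3 and 1941 under nandrolone at day 35. The day 7 groups stood far apart and the day 35 groups overlapped over a wide range, with an interaction of 3.35 ± 1.05. The orphan nuclear receptor genes went the same way: Nr4a1 had an interaction of 2.12 ± 0.82 and Nr4a2 of 1.37 ± 0.42, and both separated the treatments at day 7 only. Nr4a3 was at -1.92 at day 7 and -0.43 at day 35, with an interaction of 1.49 ± 0.81 (unadjusted p = 0.088 in limma).

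Ier2, a growth factor-induced nuclear protein, had the lowest unadjusted p of the list, 0.00271 in limma, with signals of 590.0, 561 and 599 under vehicle and 165, 284 and 376 under nandrolone at day 7, and 259, 222 and 339 under vehicle and 333, 788 and 316 under nandrolone at day 35. The vehicle arrays at day 7 agreed closely and all stood above the drug arrays, whereas at day 35 nandrolone replicate 2 alone was far above the rest. Its interaction was 1.78 ± 0.48. Ier5, whose product takes part in the heat shock response, measured 2008, 1345 and 1621 under vehicle and 484, 797 and 498 under nandrolone at day 7. At day 35 these were 809, 550.3 and 809.8 and 499.7, 782 and 509, overlapping, and the interaction was 1.20 ± 0.36. The other members with an unadjusted p under 0.05 were Jun at 0.54 ± 0.18, Fosb at 2.27 ± 0.96 and Ier3, an early response gene of cell survival, at 0.92 ± 0.39. Jun, at 4503 to 5782 in all other groups, was lower in the day 7 nandrolone arrays alone, at 3316, 4151 and 3233 against 5214, 5556 and 4938 under vehicle. Fosl1 was the member below 0, at -0.07 ± 0.39, with low signals throughout.

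**Figure D2:**
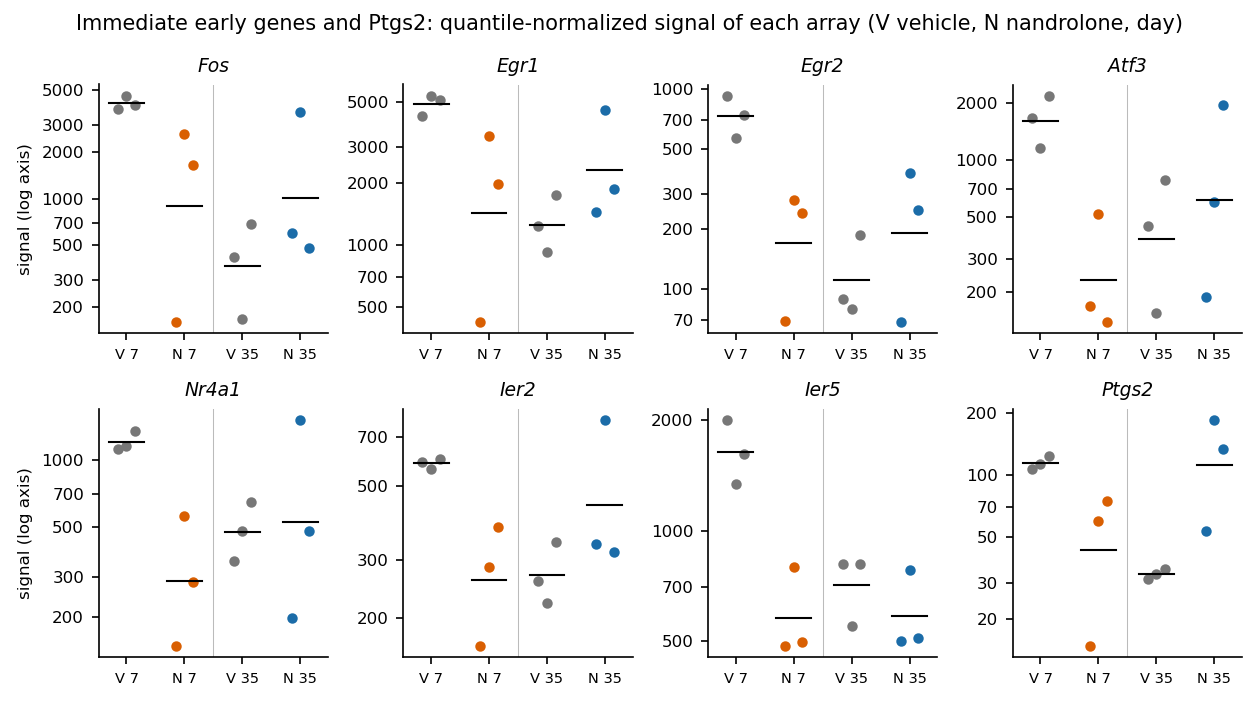
Each panel shows 1 gene, with the quantile-normalized signal on a log axis for the 3 arrays of each group as points and the geometric mean as a line (V vehicle, N nandrolone, with the day). At day 7 the vehicle arrays lie above all nandrolone arrays in every panel, at day 35 the groups overlap except for Ptgs2, and nandrolone day 7 replicate 1 is the lowest array of its group except for Atf3.

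With any 1 array left out, the median interaction of the list lay between 0.76 and 1.29, the latter without nandrolone day 35 replicate 1. The list's score, the median of its genes after centring each gene, was 0.58, 0.66 and 0.68 on the vehicle arrays at day 7 and -0.82, 0.10 and -0.12 on the nandrolone arrays. At day 35 it was -0.28, -0.30 and -0.09 under vehicle and -0.54, 0.41 and -0.06 under nandrolone. Vehicle muscle at day 7 thus stood above all other groups, and the remaining groups overlapped. Nandrolone day 7 replicate 1 had the lowest score; without it the median interaction was 0.76, with 8 members at an unadjusted p under 0.05 and all 23 above 0. Without nandrolone day 35 replicate 2, the highest late array, it was 0.99, with 9. The median was 1.02 on the deposited scale and 0.76 after median centring, both with the sign kept.

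Promoters of the members are shown because these genes differed the same way between treatments at day 7. Of the 23 members 15 had an entry in the RefSeq promoter table of the GRCr8 build, and windows from 250 bases before to 50 after the start site were searched on both strands. A CArG box, the site of serum response factor, was present in 3 of the 15 (20%) against 1.64% of all 33469 windows. The cAMP response element, with the letters TGACGTCA, was in 4 (26.7%) against 1.83%, and the E-box CACGTG in 3 (20%) against 6.42%; a match is a run of letters and not a measured binding site. The 250 bases before the start sites of Egr1 (chr18:26736828-26737077, plus strand), Egr2 (chr20:21054442-21054691, minus strand) and Ier2 (chr19:40399123-40399372, plus strand) are given 5′ to 3′ in the direction of the gene, with CArG boxes in capitals for the Egr genes and the cAMP response element for Ier2.
Egr1: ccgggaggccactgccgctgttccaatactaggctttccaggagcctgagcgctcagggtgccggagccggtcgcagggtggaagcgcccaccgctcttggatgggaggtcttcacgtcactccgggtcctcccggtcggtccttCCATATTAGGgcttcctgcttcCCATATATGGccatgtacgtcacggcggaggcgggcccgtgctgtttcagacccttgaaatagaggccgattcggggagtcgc
Egr2: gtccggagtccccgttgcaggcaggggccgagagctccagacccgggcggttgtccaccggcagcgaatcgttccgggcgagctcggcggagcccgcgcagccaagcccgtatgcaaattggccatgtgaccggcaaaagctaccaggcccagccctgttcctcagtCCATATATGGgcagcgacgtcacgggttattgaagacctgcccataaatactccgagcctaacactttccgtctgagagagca
Ier2: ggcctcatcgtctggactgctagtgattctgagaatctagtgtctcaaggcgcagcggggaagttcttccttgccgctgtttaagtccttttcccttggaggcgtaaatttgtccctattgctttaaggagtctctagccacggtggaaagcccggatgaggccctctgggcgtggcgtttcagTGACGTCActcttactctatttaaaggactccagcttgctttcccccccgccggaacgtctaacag
The Egr1 window holds the box at bases -105 and -83 from the start site, and Egr2 holds it at -83 with the same letters as the second box of Egr1. The Ier2 element begins at base -66.

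Beyond that list, Ptgs2, the inducible cyclooxygenase that makes prostaglandins, had an interaction above 0 with an unadjusted p of 0.000777 in limma. Its signals were 108, 114 and 124 under vehicle and 14.8, 59.7 and 74.8 under nandrolone at day 7, and 31.4, 33.3 and 35.1 under vehicle and 53.9, 186 and 135 under nandrolone at day 35. Nandrolone arrays lay below all vehicle arrays at day 7 and above them all at day 35, a separated reversal with an interaction of 2.52 ± 0.58. The level under vehicle was itself lower at day 35 than at day 7. Has2, a hyaluronan synthase of the cell surface, had 120.1, 126 and 127 under vehicle and 54.6, 67.3 and 67.7 under nandrolone at day 7. At day 35 these were 62.3, 41.9 and 45.1 and 65.0, 66.1 and 58.1; the early groups stood apart, the late groups overlapped, and the interaction was 1.11 ± 0.26. Ch25h, which makes the oxysterol 25-hydroxycholesterol, reversed with separation, from -0.81 at day 7 to 0.77 at day 35, at low signals of 13.3 to 108. Ccl2, the chemokine that draws monocytes, was at -0.45 at day 7 and 1.40 at day 35, where its nandrolone arrays (90.5, 196 and 274) lay above vehicle (58.8, 57.2 and 49.0). Its interaction was 1.85 ± 0.63, and it was the member of the NF-kappaB list above 0 with an unadjusted p under 0.05.

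Several genes had treatments that overlapped at day 7 and lay apart at day 35. Drg1, a GTPase of translation, measured 143, 165 and 205 under vehicle and 131, 183 and 240.1 under nandrolone early, then 115, 39.3 and 27.0 under vehicle and 214, 265 and 190.0 under nandrolone late. The late vehicle arrays were the low ones, and the interaction was 1.72 ± 0.50. St3gal2, a sialyltransferase of the Golgi, gave 0.94 ± 0.26 with late signals of 475, 379 and 504 under vehicle and 716, 1068 and 939.7 under nandrolone, and its second probe set gave 1.16 ± 0.25. Sema6a, a membrane semaphorin, had an interaction of 1.28 ± 0.30 with late signals of 62.1, 94.8 and 93.4 under vehicle and 160.1, 148 and 179.8 under nandrolone, although its other probe set gave 0.33 ± 0.44. G0s2, an inhibitor of the triglyceride lipase of lipid droplets, was at -0.67 early and 1.09 late, with 1.76 ± 0.51. Cpe, a prohormone-processing carboxypeptidase, was at 0.88 ± 0.26.

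Smaller separated reversals in this direction were found for Tnpo1, a nuclear import receptor, from -0.36 to 0.40, and for Enoph1, an enzyme of methionine salvage, from -0.32 to 0.48. Other probe sets of Tnpo1 gave -0.42 ± 0.36 and 0.13 ± 0.32. Nos1ap, an adaptor of neuronal nitric oxide synthase, went from -0.41 to 0.50 at signals under 64. The forkhead gene Foxn2, the semaphorin receptor gene Plxna4 and the zinc finger gene Zfp664 had interactions of 0.55 ± 0.24, 0.56 ± 0.29 and 0.43 ± 0.25, the last pair under 2 of their standard errors. Itga6, the laminin-binding integrin subunit, also had a probe set with a separated reversal and an unadjusted p of 0.000384 in limma, chosen after its values were seen. Its signals were 69.5, 91.9 and 72.6 under vehicle and 34.4, 42.2 and 42.4 under nandrolone at day 7, and 38.9, 26.3 and 17.2 under vehicle and 71.3, 44.8 and 76.7 under nandrolone at day 35. The interaction was 1.64 ± 0.34, while the other Itga6 probe sets, whose treatments overlapped at both days, gave 0.98 ± 0.61 and 0.62 ± 0.50.

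In the other direction Zfp212, a zinc finger gene, had the smallest unadjusted p of any named gene, 0.000317 in limma. Its signals were 286, 256 and 298 under vehicle and 426, 415 and 366 under nandrolone at day 7, and 626, 642 and 468 under vehicle and 379, 365 and 316 under nandrolone at day 35. Nandrolone was above vehicle without overlap at day 7 and below it without overlap at day 35, and the interaction was -1.18 ± 0.24; its other probe set gave the opposite sign, 0.53 ± 0.41. Zbtb11os1, a transcript annotated opposite Zbtb11, reversed in the same way, from 1.27 to -0.58, at signals no higher than 70.9. Mybph, a myosin-binding protein of the thick filament, was among the more abundant genes, at 5148, 5519 and 6491 under vehicle and 5884, 5362 and 7524 under nandrolone at day 7, and 9295, 8951 and 6919.6 under vehicle and 5201, 3334 and 4202 under nandrolone at day 35. Its treatments overlapped early and separated late, with the late nandrolone arrays the low ones, and the interaction was -1.11 ± 0.26.

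Hilpda, a hypoxia-induced inhibitor of the same lipid droplet lipase that G0s2 inhibits, showed the reverse of G0s2. Its signals were 91.9, 81.6 and 122 under vehicle and 149.7, 173 and 154 under nandrolone at day 7, and 213, 163 and 169 under vehicle and 113, 109 and 143 under nandrolone at day 35, separated one way early and the other way late. The interaction was -1.14 ± 0.27. Other genes reversed with separation from higher to lower: Zfand2b, a zinc finger protein tied to the proteasome, went from 0.75 to -0.37 and the centriole gene Poc5 from 0.28 to -0.58. The transcription factor gene Sp2 went from 0.60 to -0.37 and Adcy9, an adenylyl cyclase, from 0.21 to -0.91. Col11a2, a fibrillar collagen of cartilage, had an interaction of -1.88 ± 0.54 at signals of 16.7 to 120.0, L3mbtl2, a chromatin repressor, of -1.16 ± 0.33, Proser3 of -1.25 ± 0.33 and Cc2d1a, a regulator of signalling and transcription, of -0.96 ± 0.28.

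**Figure D3:**
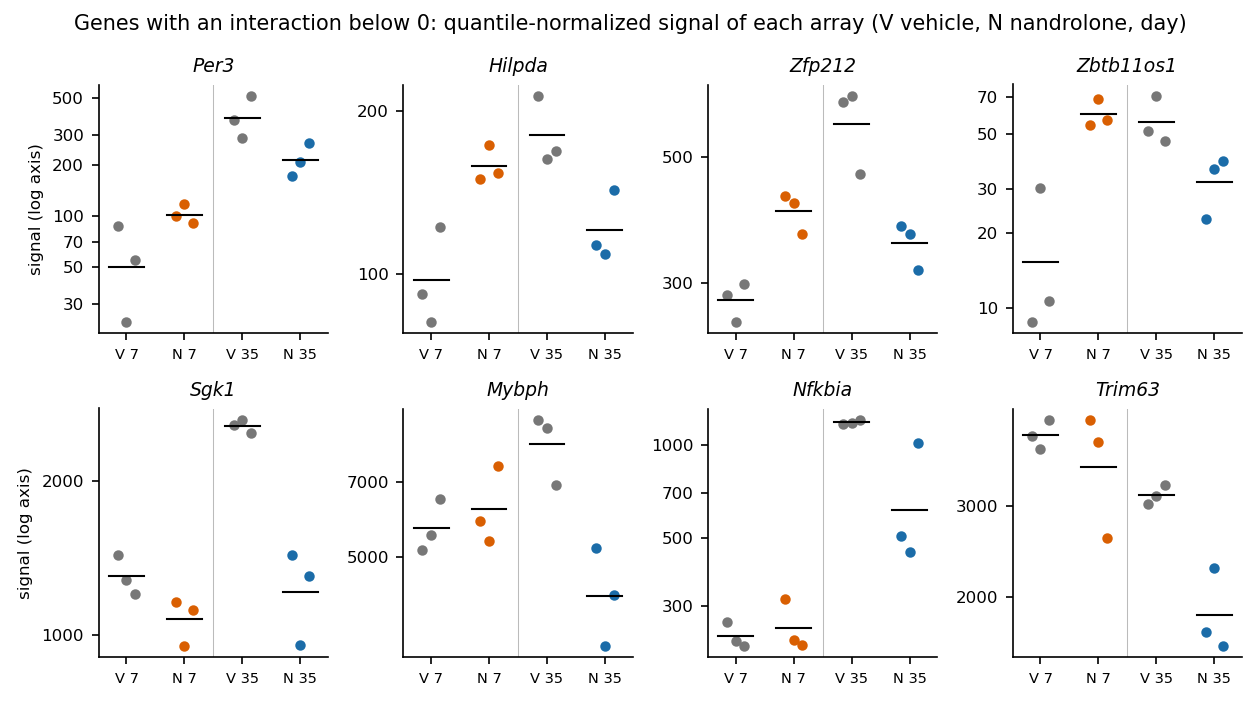
Each panel shows 1 gene with an interaction below 0, with the quantile-normalized signal on a log axis for the 3 arrays of each group as points and the geometric mean as a line (V vehicle, N nandrolone, with the day). Per3, Hilpda, Zfp212 and Zbtb11os1 cross over between the days without overlap on either, while Nfkbia, Mybph and Trim63 separate the treatments at day 35 only.

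Clock genes were partly among these. Per3, a repressor arm of the circadian clock, had signals of 87.1, 23.6 and 54.7 under vehicle and 99.5, 117 and 90.2 under nandrolone at day 7, and 369, 287 and 512 under vehicle and 173, 209 and 270.2 under nandrolone at day 35. Nandrolone was higher without overlap at day 7 and lower without overlap at day 35, while both late groups were above both early groups; the interaction was -1.61 ± 0.45 (unadjusted p = 0.00334 in limma). Bhlhe41, another clock repressor, went from 0.57 to -0.26, with -0.83 ± 0.27. Nfil3, a repressor of clock output genes, went the other way, from -0.29 to 1.16, with late vehicle signals of 13.4, 41.9 and 93.6 against 99.7, 115 and 120.5 under nandrolone, and 1.45 ± 0.53. Of the 19 clock genes 15 had an interaction below 0, with a median of -0.18 while 47.1% of all probe sets were above 0. An unadjusted p under 0.05 was found for 3 (15.8%), against 4% of all. On the deposited scale 11 were below 0, and with single arrays left out the median ran from -0.44 without vehicle day 7 replicate 1 to -0.18 without nandrolone day 35 replicate 2. The hour of day at which muscles were taken is not given in the sources used here and its part was not tested.

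Genes that glucocorticoids induce had lower signals under nandrolone at both days, by more at the late time, though none passed the test. Of 20 tested, 15 were below 0 at day 35, with a median of -0.52, and in 7 all nandrolone arrays lay below all vehicle arrays, which 7.31% of all probe sets showed. At day 7 the median was -0.20, with 16 of 20 below 0 and 3 separated, a separation that 3.75% of all probe sets showed. The median interaction was -0.28, and 4 members (20%) had an unadjusted p under 0.05, all below 0, against 2.56% of all. On the deposited scale the median was -0.14 and 1 member had such a p, and after median centring they were -0.40 and 5. Of all probe sets, 1.66% had such a p in either direction on the deposited scale and 4.73% after median centring. Array scores at day 35 were 0.67, 0.36 and 0.52 under vehicle and -0.22, -0.31 and -0.14 under nandrolone, whereas at day 7 they overlapped, so the late vehicle arrays stood alone. The median stayed below 0 when any single array was left out, between -0.11 without nandrolone day 7 replicate 2 and -0.54 without nandrolone day 7 replicate 3.

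Sgk1, a kinase that regulates ion channels and cell survival, had signals of 1435, 1277 and 1203 under vehicle and 1157, 951 and 1119 under nandrolone at day 7, and 2562, 2628 and 2481 under vehicle and 1434, 955 and 1304 under nandrolone at day 35. Nandrolone was below vehicle at both days without overlap, by -0.28 early and -1.06 late, and the interaction was -0.79 ± 0.23. Nfkbia, which binds and restrains NF-kappaB, had signals of 267, 232 and 222 under vehicle and 316, 232 and 225 under nandrolone at day 7, and 1171, 1176 and 1206 under vehicle and 504, 448 and 1018 under nandrolone at day 35. The late vehicle arrays were about level with each other and above all others, and the interaction was -1.01 ± 0.37. Klf15, a factor of amino acid breakdown, stood at -0.64 ± 0.26 and Cebpb, a leucine zipper factor named after its values were seen, at -0.68 ± 0.31. Fkbp5, a chaperone of steroid receptors often used as a reporter of glucocorticoid action, had an interaction of 0.07 ± 0.45, turning to -0.36 without nandrolone day 35 replicate 3, and Tsc22d3, also a classic target, of -0.20 ± 0.34. Ddit4, an inhibitor of mTOR that was picked after its values were seen, went from 0.38 to -1.01, with the late nandrolone arrays at 238, 167 and 1004 and the last of them above all vehicle arrays. Its day 35 difference passed limma in alternatives that gave nandrolone day 35 replicate 3 less weight or left it out, at -1.81 with array weights (adjusted p = 0.0261) and at -1.73 on the deposited scale without that array (adjusted p = 0.0466).

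Atrophy genes were near level between treatments at day 7 and had lower signals under nandrolone at day 35. Of 15 ligase and FoxO genes, 14 had an interaction below 0, also on the deposited scale and after median centring, with a median of -0.42, while 47.1% of all probe sets were above 0. The day 7 median was -0.02 and the day 35 median -0.44, with 14 below 0 at day 35. On the deposited scale 10 were below 0 at day 35, with a median of -0.20 against 0.26 over all probe sets. After median centring all 15 were below 0 at day 35, with a median of -0.55 against -0.10. In quantile-normalized signals Foxo4 was the 1 member (6.67%) with an unadjusted p under 0.05, a share near the 4% of all probe sets. Without nandrolone day 35 replicate 3 the median interaction was -0.24 and no member had such a p. Trim63 had signals of 4113, 3878 and 4406 under vehicle and 4415, 3992 and 2600.0 under nandrolone at day 7, and 3032, 3137 and 3296 under vehicle and 1709.8, 2275 and 1602 under nandrolone at day 35. Its treatments overlapped at day 7, where 1 nandrolone array was low, and separated at day 35, and the interaction was -0.57 ± 0.27. Foxo4 was at -1.01 ± 0.44, Foxo1 at -0.55 ± 0.35, Foxo3 at -0.22 ± 0.25 and Cblb, a ligase that acts on insulin signalling, at -0.42 ± 0.20. Fbxo32, at -0.27 ± 0.54, had treatments that overlapped at both days.

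The Trim63 promoter is printed because Trim63 is the member of the glucocorticoid list with a match to the hormone response element AGAACANNNTGTTC. These letters are the palindrome that androgen and glucocorticoid receptors share, short of its last base. In Trim63 the base before the capitals does not complete the palindrome. That element was in 1 of the 18 list promoters found in the table and in 13 of all 33469 windows (0.0388%). The element is in capitals in the 250 bases before the start site (chr5:151816986-151817235, plus strand), reads on the strand opposite to the gene and begins at base -219.
Trim63: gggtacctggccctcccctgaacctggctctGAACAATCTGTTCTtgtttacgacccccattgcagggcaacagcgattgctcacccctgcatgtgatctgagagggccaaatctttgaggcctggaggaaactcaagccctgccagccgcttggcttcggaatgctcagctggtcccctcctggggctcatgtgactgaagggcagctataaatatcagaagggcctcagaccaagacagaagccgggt
The shorter motif AGAACA, which is part of that element, was in 1 of the 18 (5.56%), against 20.7% of all windows.

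Of 27 proteasome genes 25 had an interaction below 0, with a median of -0.17, but 19 of the 27 were below 0 on the deposited scale. In 6 of the 27 the late nandrolone arrays lay below all vehicle arrays, a separation that 7.31% of all probe sets showed, and without nandrolone day 35 replicate 3 the median was -0.07. Psmd1, a subunit of the regulatory particle, had late signals of 996, 1146 and 1154 under vehicle and 744, 830.5 and 576 under nandrolone and an interaction of -0.72 ± 0.25. It was the member of the list with an unadjusted p under 0.05. The ATPase subunit Psmc5 was at -0.57 ± 0.28 and the core subunit Psma7 at -0.42 ± 0.25. Autophagy and lysosome genes had a median of -0.18, with 14 of 19 below 0. Vmp1, which starts autophagosomes, opposed them at 0.67 ± 0.23, with the late nandrolone arrays above vehicle.

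Extracellular matrix genes had higher signals under nandrolone at day 35, none passing the test, and the size depended on single arrays. Of 31 genes 30 were above 0 at day 35 and 24 at day 7, with medians of 1.09 and 0.14. The median interaction was 0.87, with 25 of 31 above 0, against 47.1% of all probe sets, and 4 (12.9%) at an unadjusted p under 0.05, all above 0, against 1.44% of all. List scores were -0.50, 0.13 and 1.70 on the late nandrolone arrays and -0.31, -0.24 and 1.05 on the early ones, against -0.85 to 0.09 on all vehicle arrays, so the third nandrolone array of each day stood apart. The median interaction was 0.24 without the late one, 1.47 without the early one and 0.85 without both. Leaving out both was chosen after the data were seen. Leaving out either other early nandrolone array gave 0.58 and 0.59, and leaving out the first late one gave 1.37.

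Timp1, an inhibitor of matrix metalloproteinases, had signals of 1328, 694 and 1144 under vehicle and 639.6, 642 and 1609 under nandrolone at day 7, and 126, 165 and 249 under vehicle and 262, 571 and 2312 under nandrolone at day 35. Vehicle was far lower late than early, the late nandrolone arrays were all above it, and the interaction was 2.16 ± 0.87. Postn, a matricellular protein of healing tissue, was at 2.35 ± 1.02, with 782, 2804 and 10041 in the late nandrolone arrays and 529, 474 and 998 in the late vehicle arrays. Lox, which crosslinks collagen, gave 1.43 ± 0.64 and, with its second probe set, 2.68 ± 0.77. Tnc, a matrix protein of injury that was picked after its values were seen, had the largest late difference of the list, 2.91. Its late signals were 31.9, 104 and 160.4 under vehicle and 172, 296 and 7244 under nandrolone, with replicate 3 far above the others. Without nandrolone day 35 replicate 3 the interactions of Timp1, Postn and Lox were 1.31, 1.43 and 1.20. Collagens of the same list were closer to level, for example Col3a1 at 0.66 ± 0.37.

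**Figure D4:**
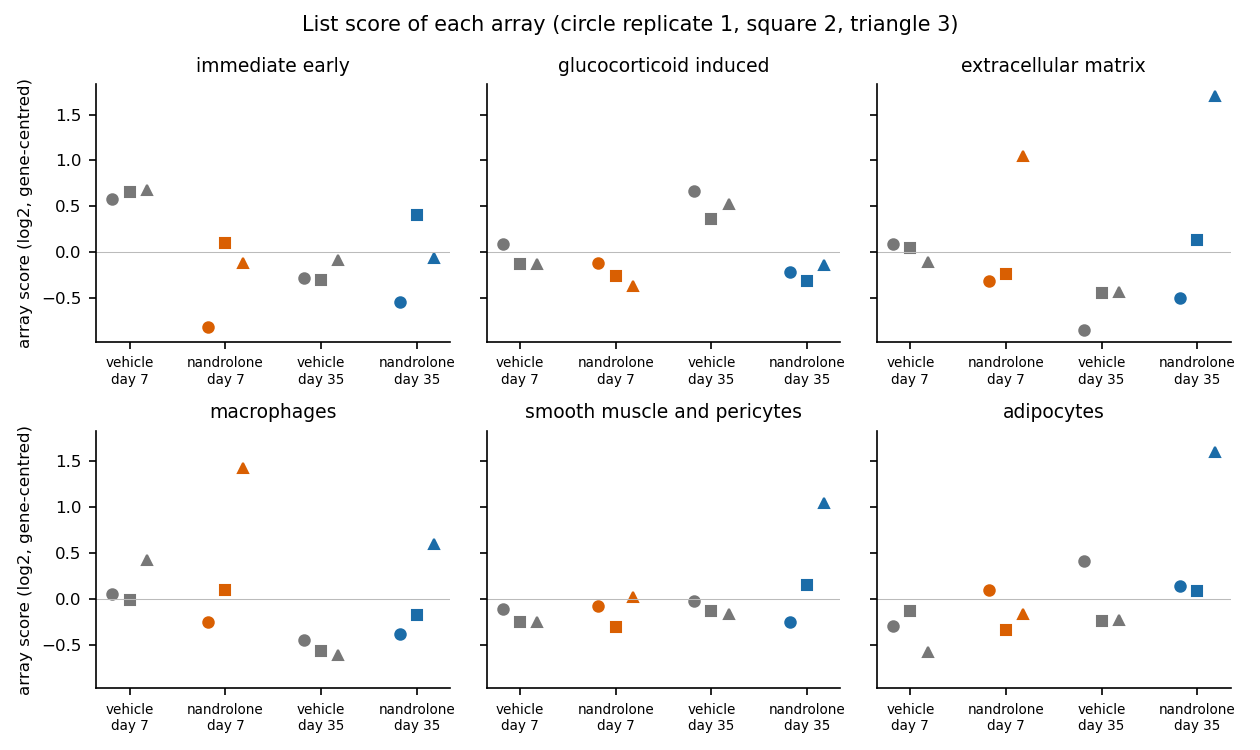
The score of 6 gene lists is shown for each array, as the median of the list's gene-centred log2 signals, with vehicle in grey, nandrolone day 7 in orange, nandrolone day 35 in blue and the replicate given by the marker. Immediate early scores of vehicle day 7 and glucocorticoid scores of vehicle day 35 stand above the other groups, while triangles of the nandrolone groups, the third arrays, stand apart in matrix and macrophage scores.

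Markers of other cell types stood high on nandrolone day 35 replicate 3, and those of fibroblasts and macrophages also on nandrolone day 7 replicate 3. Fibroblast markers scored 1.17 on nandrolone day 35 replicate 3 and 0.72 on nandrolone day 7 replicate 3, against -0.37 to 0.05 elsewhere, and had a median interaction of 0.23 over 12 genes, or -0.12 without the late one. Macrophage markers scored 0.60 and 1.42 on these arrays, and their median of 0.34 over 16 genes was -0.09 without nandrolone day 7 replicate 1, 0.86 without nandrolone day 7 replicate 3 and 0.10 without nandrolone day 35 replicate 3. At day 35 their scores were -0.45, -0.57 and -0.61 under vehicle and -0.38, -0.18 and 0.60 under nandrolone, without overlap. In 6 of the 16 all late nandrolone arrays lay above all vehicle arrays, which 4.33% of all probe sets showed. Smooth muscle and pericyte markers scored 1.04, endothelial markers 1.01, adipocyte markers 1.60 and Schwann cell and nerve markers 1.29 on nandrolone day 35 replicate 3. On nandrolone day 7 replicate 3 they scored 0.02, 0.07, -0.17 and -0.60 in that order. The median interactions of these were 0.33, 0.25, 0.55 and 0.56, none with a member at an unadjusted p under 0.05. Without nandrolone day 35 replicate 3 they were -0.04, -0.05, 0.11 and -0.22. For example Mbp, the myelin basic protein, measured 215, 191 and 3009 in the late nandrolone arrays and 90.8, 38.1 and 54.5 under vehicle, and smooth muscle actin (Acta2) 329.6, 651 and 2204 and 438, 259.7 and 326. The part of these cells in the matrix genes was not tested.

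Tendon and cartilage genes ran opposite to the matrix list. Their 8 tested members had a median of 0.82 at day 7 and -0.17 at day 35, with a median interaction of -0.96. Nandrolone day 7 replicate 3, which was also high for matrix and macrophage genes, scored 1.04 for this list against 0.35 and -0.02 on the other early nandrolone arrays, and vehicle day 35 replicate 1 scored -0.98. Without the former the median was -0.33, without the latter -1.27, and with array weights -0.31. Tenomodulin (Tnmd), a marker of tendon cells, was at -1.55 ± 0.81 with a spread of 119.5 to 542 within vehicle day 7, and chondroadherin (Chad) at -1.75 ± 0.99. Thbs4, a thrombospondin of tendon and muscle, opposed them at 0.83 ± 0.34. Erythrocyte markers had 3 tested members with a median of 0.87, or 0.34 without nandrolone day 35 replicate 3, among them Alas2, an enzyme of haem synthesis, at 0.92 ± 0.38. Lymphocyte and mast cell markers also had 3 tested members each, at medians of 0.18 (-0.24 without nandrolone day 35 replicate 2) and -0.14, most of the listed genes having signals too low to be tested.

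At the nerve-muscle junction, Chrne, the subunit of the adult acetylcholine receptor, had signals of 142, 164 and 127 under vehicle and 185, 158 and 207 under nandrolone at day 7, and 407, 518 and 324 under vehicle and 399, 176 and 70.5 under nandrolone at day 35. The late nandrolone arrays spread from the vehicle level down to well under it, and the interaction was -1.47 ± 0.59. Without nandrolone day 35 replicate 3 it was -0.90. Chrnb1, the beta subunit, had -1.20 ± 0.60, with its lowest value on that same array and -0.60 without it. The receptor and synapse list had a median of -0.19 (-0.06 without that array) over 16 genes, and of -0.53 and 0.00151 without vehicle day 35 replicates 2 and 3 in turn. Chrna1 and Chrng, the alpha and fetal gamma subunits, were at -0.48 ± 0.53 and -0.04 ± 1.38, and at -0.02 and 1.12 without nandrolone day 35 replicate 3. Myogenic factors had a median of -0.26 (0.01 without that array), with myogenin (Myog) at -0.44 ± 0.36, Mef2a at -0.38 ± 0.25, the fusion protein gene Mymk at -1.42 ± 0.72 and Id3, an inhibitor of these factors, at 0.89 ± 0.41. Myog was at -0.11 without that array and Mymk at -0.27 without the third nandrolone array of both days. Denervation response genes had -0.29 (0.03 without that array) over 16 genes, with Gadd45a at -0.77 ± 0.41, Runx1 at -0.55 ± 0.43 and the deacetylase gene Hdac4 at -0.74 ± 0.65, of which Runx1 was at -0.24 and Hdac4 at -0.32 without it.

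Among signalling pathways, Notch targets had interactions above 0. Hey1, a transcriptional repressor downstream of Notch, had 63.9, 63.5 and 70.2 under vehicle and 86.4, 154 and 235 under nandrolone at day 35, and 99.7, 120.1 and 103 and 138, 93.0 and 111 at day 7. The late groups did not overlap and the early ones did, with an interaction of 0.94 ± 0.39. Hey2 was at 0.92 ± 0.39, Hes1 at 0.49 ± 0.34, the receptor gene Notch1 at 0.13 ± 0.41 (-0.27 without nandrolone day 35 replicate 3) and its inhibitor Numb at 0.23 ± 0.32, and 13 of 15 list members were above 0 (median 0.25), against 47.1% of all probe sets. Scores of the late nandrolone arrays were 0.00, 0.10 and 0.45, with replicate 3 apart. Without it the median was 0.08 and Hey1 and Hey2 were at 0.63 and 0.57, and on the deposited scale without it the median was -0.03, with 7 members above 0. Wnt genes had a median of 0.28 (0.01 without that array), with the ligand gene Wnt4 at -0.99 ± 0.40, the co-receptor gene Lrp5 at -0.96 ± 0.47 and the receptor gene Fzd8 at 0.66 ± 0.38 (0.35 without it). Calcineurin and NFAT genes had -0.24 over 17 genes, 13 of them below 0. Nfat5, the factor of osmotic stress, was at -0.80 ± 0.29 with late groups that did not overlap, and its other probe set at -0.04 ± 0.31. The calcineurin inhibitors Rcan1 and Rcan2 were at 0.70 ± 0.45 and -0.65 ± 0.34.

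**Figure D5:**
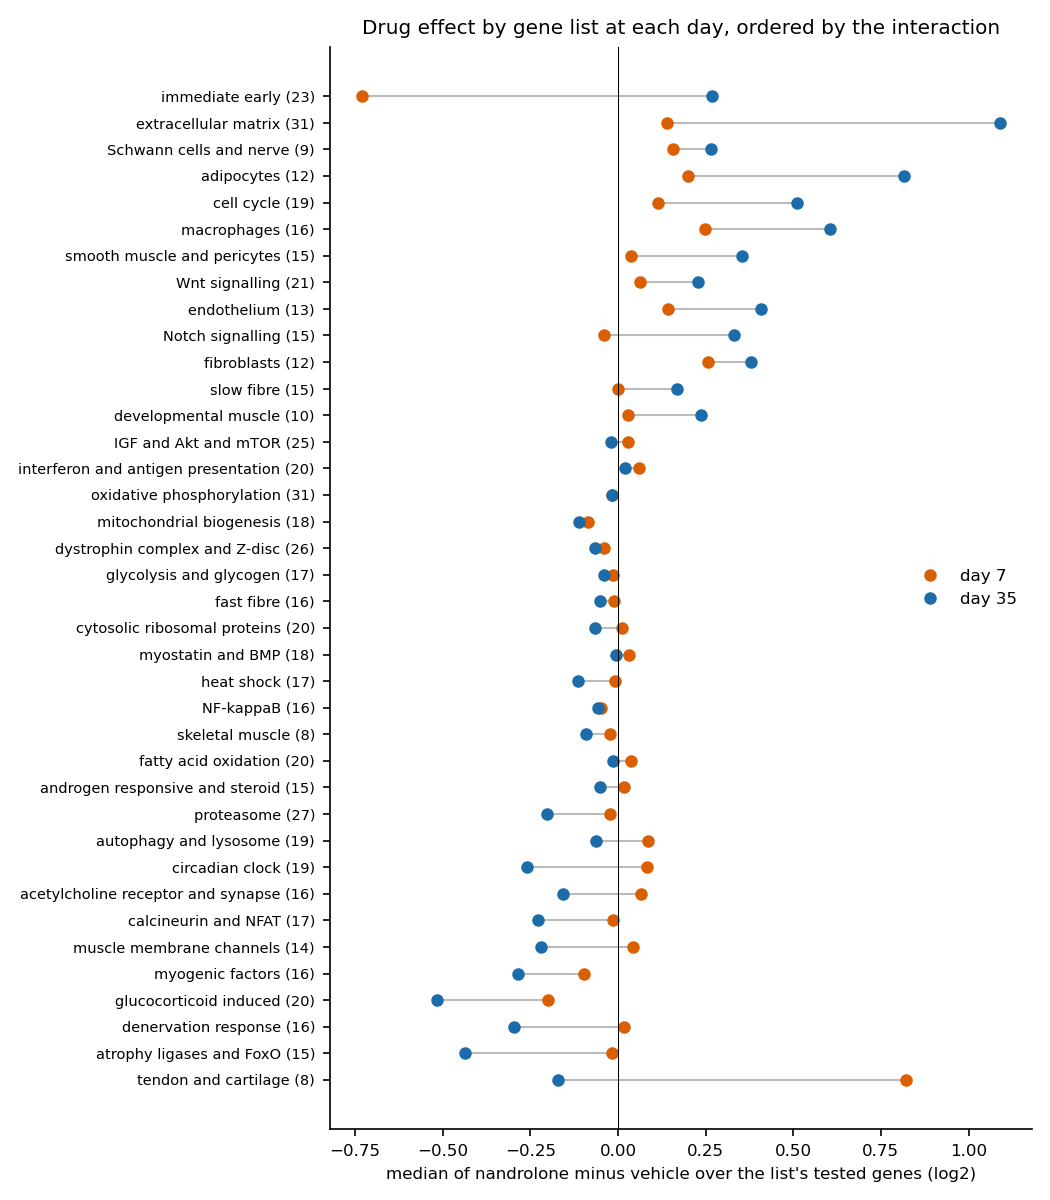
For each list with at least 8 tested genes (number in brackets), the orange point is the median log2 difference between nandrolone and vehicle at day 7 and the blue point that at day 35, ordered by the median interaction of the list. Immediate early genes cross from -0.73 to 0.27 and tendon and cartilage genes from 0.82 to -0.17, while most lists stay near 0 at day 7.

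Growth pathways had list medians near 0. The IGF, Akt and mTOR list had a median of 0.06 over 25 genes, none with an unadjusted p under 0.05, with Igf1 at 0.63 ± 0.63, Igf1r at -0.42 ± 0.32, Akt2 at -0.59 ± 0.35, Eif4e, the cap-binding factor of translation, at 0.42 ± 0.24 and Rheb at 0.36 ± 0.22. Other probe sets of Igf1r and Akt2 had interactions above 0, and Igf1 was at -0.02 without nandrolone day 35 replicate 3, on which it measured 4351. The myostatin and BMP list had -0.06, with myostatin itself (Mstn) at 0.67 ± 0.50, its binding protein follistatin (Fst) at -0.51 ± 0.55 and the activin receptor gene Acvr2b at -0.75 ± 0.33. Inhba, an activin subunit, was at 1.58 ± 0.90 and Smad3 at -0.65 ± 0.39, each with another probe set of the opposite sign. Without nandrolone day 35 replicate 3, Inhba was at 0.60, Smad3 at -0.38 and Fst at -0.07.

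Of the steroid list, Hsd11b1, which regenerates active glucocorticoid in tissue, had signals of 438, 420.4 and 457 under vehicle and 374, 441 and 374 under nandrolone at day 7, and 138, 233 and 189 under vehicle and 262, 659 and 349 under nandrolone at day 35. The late nandrolone arrays were all above vehicle, the early ones overlapped, and the interaction was 1.18 ± 0.40 (unadjusted p = 0.0106 in limma). Apod, a lipid-binding apolipoprotein, had 1279.9, 711 and 13560.3 in the late nandrolone arrays, 427, 94.5 and 84.8 in late vehicle, 1957, 401 and 302 in early nandrolone and 249.5, 369 and 344 in early vehicle. Its interaction of 2.84 ± 1.35 was 1.57 without nandrolone day 35 replicate 3 and 1.06 without the third nandrolone array of each day. The list had a median of -0.16, with the polyamine genes Odc1 and Amd1 at -0.34 ± 0.24 and -0.24 ± 0.32 and the mineralocorticoid receptor gene Nr3c2 at -0.61 ± 0.38.

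In metabolism, Ucp3, the uncoupling protein of muscle mitochondria, had signals of 1388, 1563 and 1430.3 under vehicle and 1346, 1361 and 1047 under nandrolone at day 7, and 1217, 1170.4 and 1321 under vehicle and 508, 828 and 468 under nandrolone at day 35. Nandrolone was below vehicle without overlap at both days and by more at day 35, and the interaction was -0.84 ± 0.28, and its other probe set gave -0.84 ± 0.39. That probe set did not separate the treatments on either day and was at 0.15 at day 7 and -0.69 at day 35. Lpl, the lipase that frees fatty acids from lipoproteins, opposed it at 0.61 ± 0.25 and the fatty acid transporter gene Cd36 at 0.97 ± 0.45. The fatty acid oxidation list as a whole had -0.10 (0.21 without nandrolone day 35 replicate 3), oxidative phosphorylation 0.01, glycolysis and glycogen -0.04 (0.01 without that array) and mitochondrial biogenesis -0.00269 (0.18 without it), with Ppargc1a, its coactivator, at -0.10 ± 0.55. The other Ppargc1a probe set gave 0.32 ± 0.53. None of the last 3 lists had a member at an unadjusted p under 0.05.

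Contractile genes also had list medians near 0. The fast myosin heavy chain gene Myh1 was at 0.62 ± 0.24 (late signals 3629, 2814 and 3002 for vehicle and 3956, 4398 and 3606 for nandrolone), and its 4 other probe sets were also above 0. Myh2, Myh4 and the slow gene Myh7 were at 0.08 ± 0.16, -0.24 ± 0.22 and 0.02 ± 0.73, and the fast fibre list had a median of -0.04. Slow fibre genes had 0.14, 0.73 without nandrolone day 35 replicate 3 and -0.41 without nandrolone day 35 replicate 2. Ankrd2, a stretch-responsive gene, measured 48.1, 6738 and 121 in the late nandrolone arrays, so replicate 2 stood apart. Developmental muscle genes had 0.09, muscle membrane channels -0.24 and the dystrophin complex and Z-disc -0.03. Without nandrolone day 35 replicate 3 these were 0.62, -0.06 and 0.19. The developmental median was -0.22 without nandrolone day 35 replicate 2 and 0.89 without the third nandrolone array of both days, and the channel median -0.48 without nandrolone day 35 replicate 1.

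Of the remaining lists, cell cycle genes had a median of 0.38 over 19 genes, or 0.09 without nandrolone day 35 replicate 3, with Mcm3, a replication helicase subunit, at 1.12 ± 0.54 and Cdk1 at 0.77 ± 0.47, while the inhibitor gene Cdkn1c was at -1.10 ± 0.65. Heat shock genes had -0.08 and interferon and antigen presentation genes 0.01, or 0.17 and -0.10 without nandrolone day 35 replicate 3. The medians of NF-kappaB genes and cytosolic ribosomal protein genes were -0.08 and -0.06. Apart from the NF-kappaB list, whose members with an unadjusted p under 0.05 were Ccl2 and Nfkbia, these lists held none. The lists of heat shock, NF-kappaB, ribosomal, fast fibre, glycolysis, dystrophin, mitochondrial biogenesis, myostatin and mast cell genes had medians above 0 on the deposited scale, and those of interferon, slow fibre, developmental, IGF and oxidative phosphorylation genes had medians below 0 after median centring.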

How the data were processed

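Affymetrix one-colour arrays measured total RNA, and the deposited table holds a linear intensity for every probe set on every array. MAS5 is named in the submitters' processing notes; its version and scaling target are not given in the sources used here, and no detection calls were used. A second deposited table of fold changes, whose 12 columns are named by number only, was not used. The 57 control probe sets were left out of 31099, 16 was added, log2 taken and arrays quantile-normalized, and the 40% with the lowest mean were left out, which left 18625. Of these 14317 named 1 gene in the platform annotation, with current symbols from the GRCr8 annotation of RefSeq, and where several probe sets named 1 gene the brightest on average was taken (10421 genes). A model with 4 group means was fitted by limma 3.58.1 in R 4.3.3, with an intensity trend and 8 residual degrees of freedom; tests are two-sided with Benjamini-Hochberg adjustment, and ± is the standard error. The fit was tested on simulated data with noise drawn independently for each probe set and array. That test did not cover arrays on which many genes shift together. Fold changes are on the log2(intensity + 16) scale, which understates low genes.

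The members and the 41 gene lists (30 pathway, 11 marker) were chosen with earlier results of these data known, so lists are described by counts and medians without a test. Genes were named by rule: up to 12 per direction by smallest interaction p, up to 8 separated reversals per direction, up to 3 per list and set genes of muscle and androgen biology. Alternatives were the deposited scale, median centring, a pseudocount of 1 or 64, no filter or 60%, no trend, array weights, the replicate block, an adjusted threshold of 0.10, at least 1.5-fold, probe sets averaged per gene, only the groups compared, and each array left out.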

Additional observations from a re-analysis of the deposited data

Results flagged for a closer look

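In 16 named genes every nandrolone array lay on one side of every vehicle array at day 7 and on the other side at day 35, which is why they are listed; the difference itself did not pass limma's interaction test after adjustment (adjusted p = 0.928 for each), and 0.36% of all probe sets showed such a crossing. Interactions above 0 were 2.52 for Ptgs2, 1.57 for Ch25h, 0.764 for Tnpo1, 0.803 for Enoph1, 0.915 for Nos1ap, 0.546 for Foxn2, 0.557 for Plxna4 and 0.427 for Zfp664. Interactions below 0 were -1.18 for Zfp212, -1.85 for Zbtb11os1, -1.14 for Hilpda, -1.61 for Per3, -1.12 for Zfand2b, -0.862 for Poc5, -0.963 for Sp2 and -1.12 for Adcy9. The 16 were taken by the naming rule from 67 probe sets with such a crossing. Separation the same way at both days was more common, at 106 probe sets (0.569%). On a single day, nandrolone lay above vehicle in 3.9% (day 7) and 4.33% (day 35) of probe sets. It lay below vehicle in 3.75% and 7.31%. Whether crossings exceeded what these shares give by chance was not tested, so the list is a description only. With 3 arrays a group, single arrays were not tested for standing apart.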

How the results depend on the processing

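The interaction had 0 calls under each of 26 alternatives; the lowest adjusted p was 0.0541, on the deposited scale without nandrolone day 35 replicate 3, and 0.16 with array weights. Nandrolone at day 35 had 49 calls with array weights, 12 higher and 37 lower, among them Sgk1, Nfkbia, Mybph, Hsd11b1 and St3gal2; the weights ran from 0.209 for nandrolone day 35 replicate 3 to 3.32 for vehicle day 35 replicate 1. Leaving out 1 array gave 0 to 1 calls at day 7 (1 without vehicle day 7 replicate 3) and 0 to 1 at day 35 (1 without vehicle day 35 replicate 3), each a probe set that names no gene here; on the deposited scale without nandrolone day 35 replicate 3 it had 1 at day 35, Ddit4. The 67 separated reversals became 18 on the deposited scale, 128 with no filter on low signals, 34 with a 60% filter and 144 on the deposited scale without nandrolone day 35 replicate 3. They became 96 to 279 without 1 array and 423 without the third nandrolone array of both days, an alternative chosen after the data were seen; fewer arrays and more probe sets give more by construction. With the replicate number as a block the interaction had 0 calls (lowest adjusted p 0.855, 1015 at an unadjusted p under 0.05), as did both days; deviations of same-numbered arrays correlated above 0.1 in every pair only between the nandrolone groups (0.162, 0.265 and 0.416), so the numbers were not taken as pairs. Of 164 named genes, 140 kept their sign under all alternatives that gave a value (up to 23). All 30 named for a small p or a reversal did so, but they were picked for this on the same arrays. Their kept sign was nearly fixed by that choice. Without nandrolone day 35 replicate 3 the signs of Chrng, Cpa3, Des, Esam, Fkbp5, Igf1, Mylk, Notch1, Ppargc1a and Tagln turned. Without nandrolone day 35 replicate 2 those of Ankrd2, Casq2, Cd3g, Myh2 and Myh7 turned. Cd4 turned without nandrolone day 7 replicate 3, Cma1 without vehicle day 7 replicate 3 and Fbxo32 and H19 without vehicle day 35 replicate 2. The number of arrays and the closeness of many low signals to background limit all values.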
